A study of Mus musculus with 8 samples.

Results

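The expression of 30 circadian clock genes was followed in the hypothalamus (HT) of adult mice, some of which had been exposed to maternal separation (MS) early in life. The members were taken by name from the probe annotation of the arrays, leaving out control spots, and *Ciart* was found under its older symbol *Gm129*. All 30 genes were present with 48 probes, and all 48 probes passed the filter on dim signal, out of 17314 genes and 37313 probes that passed it in all. For each gene the brightest probe was used and the other probes were set beside it. On mm9, the build of the array annotation, the probes that the main relations rest on lie at chr7:52965461-52965520 (*Dbp*), chr9:43903649-43903708 (*Usp2*), chr3:95682433-95682492 (*Ciart*) and chr10:127689823-127689882 (*Timeless*).

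The HT came from 8 adult male C3H/HeN mice, with 1 one-colour Agilent array per mouse and all arrays on 1 slide. The MS group held 4 mice that had been separated from their dams from postnatal day 2 to 14, while the dams were exposed to chronic unpredictable stress, and the control group held 4 mice raised without separation. Mice of both groups had gone through operant training for palatable milk and were food-deprived before they were killed under isoflurane. They lived in an inverted light cycle, the HT was dissected whole, and no source used here gives the time of day of sacrifice, so a difference in sampling time between mice cannot be told apart from any other difference in clock gene signal. MS mice carried the labels 5.3, 7.1, 7.2 and 7.6 and control mice the labels 6.2, 8.2, 8.4 and 8.5, and values of single mice are listed in these orders. Nothing in the labels says whether mice shared a litter, so p-values measure only the spread between these mice. The number before the dot is not explained. It is shared by MS 7.1, 7.2 and 7.6 and by control 8.2, 8.4 and 8.5. The paper assigned litters to MS or control, and if such mice were litter mates, the p-values count them as independent.

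In the mammalian clock, the activators CLOCK (or NPAS2) and BMAL1, the product of *Arntl*, bind E-boxes and drive the *Per* and *Cry* genes, whose proteins return to block the activators. A second loop runs through the nuclear receptors REV-ERB and ROR, which compete at ROR elements (ROREs) of *Arntl* and of other genes of the opposite phase, and a group of bZIP factors acts on D-boxes. The suprachiasmatic nucleus (SCN) of the HT is the master pacemaker, set by light through the retina, and the rest of the HT holds weaker clocks that also follow feeding. C3H mice make melatonin and carry a retinal degeneration allele that removes the rods.

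Some of the promoter stretches that hold a clock motif are shown, for genes whose variation between mice is described further on. A match is a description of the letters and not of a working site. Windows from 250 bases before to 50 bases after the start site (RefSeq, mouse build GRCm38.p6) were given for 25 of the 30 members, as 34 windows. The E-box CACGTG stood in 6 of these 34 windows, of *Bhlhe41*, *Ciart*, *Cry1*, *Per1* and *Tef*, and in 7.15% of all 32851 windows. The variant CACGTT, searched on both strands and so also read as AACGTG, stood in 4 windows, of *Cry1*, *Cry2*, *Nr1d1* and *Rorb*, against 4.68% of all. Either D-box, TTATGTAA or TTACGTAA, stood in the windows of *Per3* and *Timeless*, against 1.06% of all, and a RORE in that of *Arntl*, against 0.384% of all. These motifs did not overlap each other in the member windows. No window of *Dbp* or *Usp2* held any of these letters. Not shown are another *Ciart* E-box at -116, the E-box of another *Tef* window and the *Timeless* D-box. The *Cry2* and *Rorb* variants are not shown either. Each stretch below runs 5′ to 3′ on the strand of its gene, with the motif in capitals.
Ciart, chr3:95882247-95882306, minus strand, E-boxes starting at -58 and -44 from the start site: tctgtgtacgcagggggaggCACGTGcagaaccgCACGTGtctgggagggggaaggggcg
Per1, chr11:69098763-69098808, plus strand, E-box: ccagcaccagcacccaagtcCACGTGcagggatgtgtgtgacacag
Tef, chr15:81802526-81802571, plus strand, E-box: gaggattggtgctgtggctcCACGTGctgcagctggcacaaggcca
Bhlhe41, chr6:145865548-145865593, minus strand, E-box: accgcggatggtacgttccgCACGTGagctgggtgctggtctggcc
Cry1, chr10:85185089-85185153, minus strand, variant E-box and then E-box: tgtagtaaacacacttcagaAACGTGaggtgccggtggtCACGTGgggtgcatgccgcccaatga
Nr1d1, chr11:98775380-98775425, minus strand, variant E-box: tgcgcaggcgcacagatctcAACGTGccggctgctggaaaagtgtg
Per3, chr4:151044796-151044890, minus strand, 2 D-boxes: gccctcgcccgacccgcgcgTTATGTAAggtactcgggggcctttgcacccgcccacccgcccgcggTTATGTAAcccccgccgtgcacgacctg
Arntl, chr7:113207518-113207547, plus strand, RORE just after the start site: cgacatttagggaaggcagAAAGTAGGTCA

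Signals are log2 values relative to the 75th percentile of the same array, and differences between groups are log2 fold changes, MS minus control, from limma with Benjamini-Hochberg (BH) adjustment over all probes. The number of arrays limits the precision. Between 61.2% and 71.1% of probes were well above background on each array. The array of MS mouse 7.6 was the dimmest, with a 75th percentile of 499.2, whereas the other 7 arrays lay between 750.6 and 901.6, and control mouse 8.5 had the next lowest number of probes above background. All 12 hypothalamic and all 10 SCN marker genes were measured. *Vip*, a peptide of the light-receiving SCN core, was at -2.79, -1.44, -1.28 and -2.61 in MS mice, against -3.10, 0.59, 0.98 and -3.66 in control mice, so that control mice 8.2 and 8.4 stood above all others. *Nms*, another SCN peptide, was lower in every MS mouse than in any control mouse, at -4.03, -3.08, -3.13 and -3.41 in MS mice, against -2.39, -2.30, -1.97 and -2.54 in control mice (-1.11 ± 0.22, SE, limma, adjusted p = 0.989). Among the 10 SCN genes *Nms* alone had an unadjusted p under 0.05 or groups that did not overlap, against 2.66% and 1.77% of all genes. Log2 fold changes were above 0 for 2 of the SCN genes (*Lhx1*, 0.14, and *Prok2*, 0.06) and below 0 for 8, with *Avp* at -0.02. Of the hypothalamic markers, 4 of 12 had an unadjusted p under 0.05, against 2.66% of all genes, and none passed the adjustment. Their differences were -1.45 for *Hcrt*, -0.46 for *Pmch*, -0.21 for *Sst* and 0.21 for *Hdc*. The part of these tissue markers in the clock gene values was not tested. In such whole-tissue samples fewer cells of a type and less RNA per cell cannot be told apart.

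No effect of MS on the clock genes of the HT was detected. None of the 30 members passed an adjusted p of 0.05, as for the 37313 probes as a whole (0%), and none reached an unadjusted p of 0.05, which 2.66% of the 17314 genes and 3.4% of the probes did. No member had groups that did not overlap, against 1.77% of all genes. Log2 fold changes were above 0 for 18 members and below 0 for 12 (16 above 0 after quantile and 21 after median scaling), where 53.6% of all genes were above 0, with a median of 0.02 beside 0.01 for all genes, and every adjusted p was 0.989 or higher. With the brightest probe of each gene, changes of more than 1.5-fold either way were outside the 95% interval for 26 of the 30 members. The same held for 88.9% of all genes. Changes of more than 2-fold were outside it for all 30 members and for 96.1% of all genes. The 4 members with intervals wider than 1.5-fold were *Ciart*, *Cry1*, *Nr1d1* and *Timeless*. Intervals of the second probes of *Per1* and *Fbxl21* also reached past 1.5-fold. That of the second *Timeless* probe, from -1.26 to 0.28, reached past 2-fold. The median spread within groups was 0.10 (log2 SD) over members and 0.12 over all genes.

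**Figure D1:**
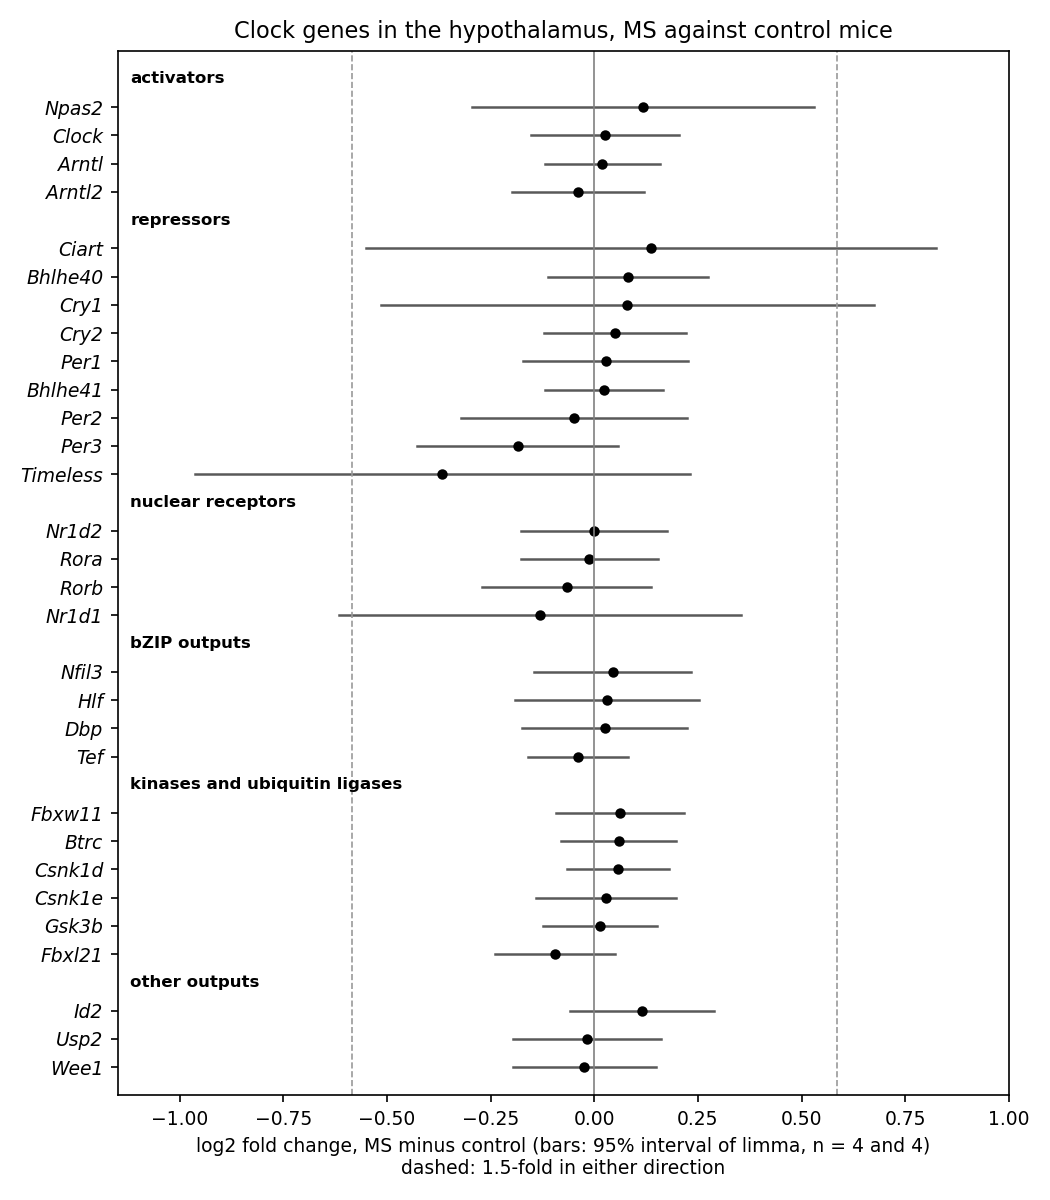
Log2 fold change of the brightest probe of each of the 30 clock genes, MS minus control (points), with the 95% interval of limma (bars, n = 4 mice a group), ordered by role; dashed lines mark 1.5-fold in either direction. Every interval includes 0, and only those of Ciart, Cry1, Nr1d1 and Timeless reach past 1.5-fold.

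Among the 4 activators, *Arntl*, the obligate partner of CLOCK, was at 1.04, 0.93, 0.87 and 1.05 in MS mice, against 0.93, 1.01, 0.93 and 0.96 in control mice. The 2 groups overlapped fully and differed by 0.02 ± 0.06 (SE). *Clock* was at -0.39, -0.46, -0.29 and -0.42 in MS mice, against -0.42, -0.32, -0.59 and -0.32 in control mice. *Npas2*, which can stand in for CLOCK in the forebrain, was dim and more variable, at -5.32, -4.87, -5.22 and -4.66 in MS mice, against -5.36, -4.87, -5.38 and -4.94 in control mice. Its difference of 0.12 ± 0.18 (SE) had the smallest p on the upper side in this role (limma, adjusted p = 0.989). *Arntl2*, a paralog of *Arntl*, was at 1.24, 1.32, 1.09 and 1.29 in MS mice and 1.35, 1.21, 1.24 and 1.29 in control mice, a difference of -0.04 ± 0.07 (SE). The other *Arntl2* probes were far dimmer, with means of -3.15 and -4.49 in MS mice and -3.07 and -4.46 in control mice. Their r with the brightest probe was 0.783 and -0.046 over 8 mice, so the level of this gene depended on the probe.

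The repressors held the widest spread of the roles, with a median SD within groups of 0.16. *Per1*, a light-inducible period gene, was at 3.28, 3.23, 3.35 and 3.08 in MS mice, against 3.28, 3.26, 3.28 and 3.01 in control mice, with the lowest value of each group in the mouse with the fewest probes above background. *Per2* was at 0.02, -0.39, -0.26 and -0.46 in MS mice, against -0.39, -0.05, -0.16 and -0.30 in control mice, without order between the groups. *Per3*, the least essential of the period genes for rhythm, was at -1.64, -1.28, -1.47 and -1.77 in MS mice, against -1.31, -1.44, -1.39 and -1.30 in control mice. MS mouse 7.1 was the highest of all 8 mice and the other 3 MS mice were the lowest, so the difference of -0.18 ± 0.11 (SE), with an interval from -0.43 to 0.06, was not significant (limma, the smallest p of the 30 members, adjusted p = 0.989). Without that mouse the difference was -0.27, past the threshold before adjustment and not after it.

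*Cry1*, whose protein is the main late repressor of CLOCK and BMAL1, was at -3.43, -3.45, -3.46 and -4.29 in MS mice, against -3.51, -3.47, -3.61 and -4.36 in control mice. In each group 1 mouse, MS 7.6 and control 8.5, lay well below the other 3, and these 2 arrays had the fewest probes above background. *Ciart*, which encodes CHRONO, a repressor of CLOCK and BMAL1, varied more within groups than 95.9% of all genes, at -1.66, -1.23, -1.17 and -2.38 in MS mice and -1.75, -1.44, -1.49 and -2.33 in control mice. The same 2 mice were the lowest, and the 8 mice spanned 2.31-fold. The difference of 0.14 ± 0.30 (SE), the highest of the 30 members, had an interval from -0.55 to 0.82.

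With its brightest probe, *Bhlhe41*, which encodes DEC2, a repressor at E-boxes, was among the steadiest members. That probe was at -2.29, -2.15, -2.27 and -2.26 in MS mice, against -2.17, -2.24, -2.34 and -2.31 in control mice. The second *Bhlhe41* probe varied more within groups than 85.6% of all genes and spanned 1.535-fold, with r = 0.302 between the probes. *Bhlhe40*, the paralog of *Bhlhe41*, was at 1.08, 1.14, 0.98 and 0.84 in MS mice, against 0.98, 1.02, 0.92 and 0.79 in control mice, a difference of 0.08 ± 0.08 (SE, limma, adjusted p = 0.989), the smallest p on the upper side among the repressors. *Cry2*, the second cryptochrome, ran from 3.90 to 4.17 in MS mice and from 3.91 to 4.03 in control mice, a difference of 0.05 ± 0.07 (SE).

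*Timeless*, a gene of replication forks whose place in the mammalian clock is debated, had the lowest log2 fold change of the members, -0.37 ± 0.26 (SE), with an interval from -0.96 to 0.23 (limma, adjusted p = 0.989). It was chosen for description after its values were seen. The brighter probe was at 0.42, -0.43, 0.05 and 0.51 in MS mice, against 0.92, 0.10, 0.20 and 0.79 in control mice. MS mouse 7.1 was the lowest and control mice 6.2 and 8.5 the highest, and the 8 mice spanned 2.56-fold. A second probe ranked the mice alike (rho = 0.905), at -3.05, -3.94, -3.25 and -2.97 in MS mice and -2.64, -3.36, -3.26 and -1.98 in control mice (Pearson r = 0.906 between the probes over 8 mice, exact permutation p = 0.00228, BH-adjusted p = 0.0205 over 18 probe pairs). The difference stood in 1 row of the slide, at -0.82 among the mice of row 2 (MS 7.1 and 7.6, control 6.2 and 8.5), and was 0.09 among those of row 1.

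The order of the mice by *Timeless* was close to their order by pituitary marker genes, although the relation failed the adjustment. Of the 8 genes on this list 7 passed the filter (*Pou1f1* did not), and their mean was at 0.74, -0.13, 0.16 and 0.78 in MS mice, against 3.38, 0.57, 0.22 and 1.30 in control mice. Over the 8 mice *Timeless* and this mean had a Spearman rho of 0.976 (exact permutation p = 0.000397) and a Pearson r of 0.823 (exact permutation p = 0.00722), and r was 0.919 without MS 7.1 and control 6.2 and 0.803 with row means removed. After BH adjustment over the 419 relations computed between members and marker lists, these p-values were 0.166 for rho and 0.426 for r, and none of the 419 relations passed. The relation was closest for *Cga*, the common subunit of the glycoprotein hormones (r = 0.907), *Tshb*, the thyrotropin subunit (r = 0.891) and *Pitx1*, a pituitary transcription factor (r = 0.889), and lower for *Gh* (r = 0.422) and *Prl* (r = 0.321), the growth hormone and prolactin genes (exact permutation, unadjusted p = 0.00218, 0.00322, 0.00196, 0.301 and 0.437 over 8 mice). The part of pituitary tissue in the *Timeless* values was not tested.

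**Figure D2:**
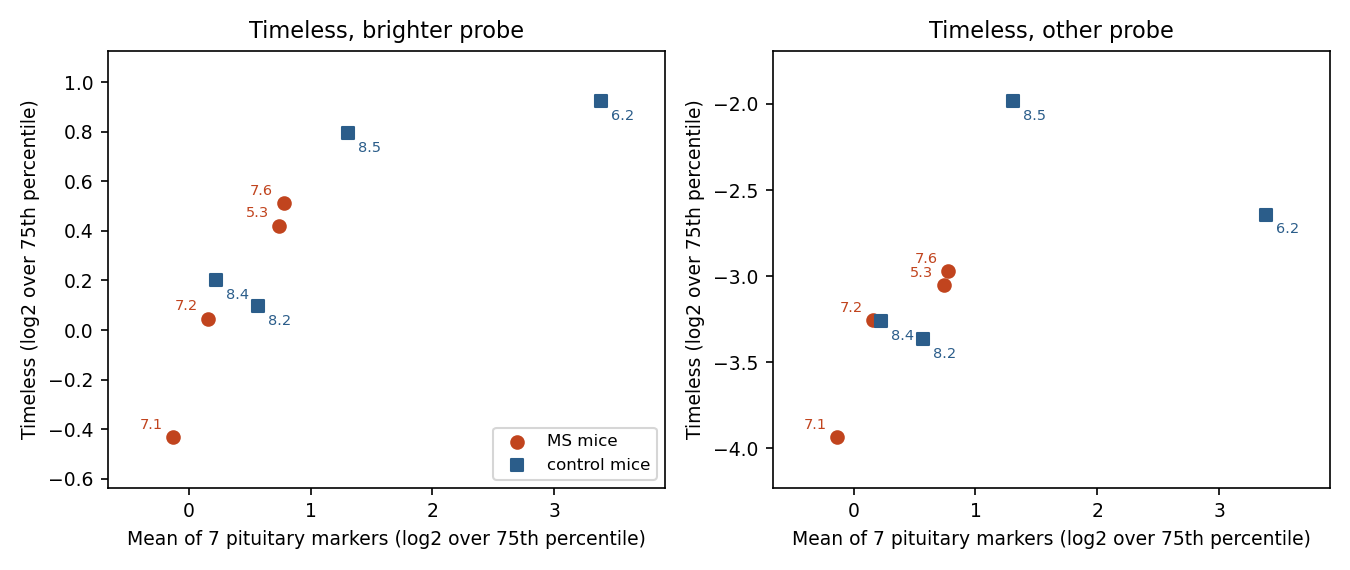
Signal of both Timeless probes against the mean of 7 pituitary marker genes, 1 point a mouse (MS circles, control squares, numbers are mouse labels), all as log2 over the 75th percentile of the array. MS mouse 7.1 is lowest on both axes, and control mice 6.2 and 8.5 are highest on both.

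The 4 nuclear receptors had differences between -0.13 and -0.0005, and 3 of them, all but *Rorb*, turned sign under some alternatives. *Nr1d1*, which encodes REV-ERB alpha, a repressor of *Arntl*, was at -0.41, 0.05, -0.33 and -1.10 in MS mice, against -0.35, -0.22, -0.29 and -0.40 in control mice. MS mice 7.1 and 7.6 were the highest and the lowest of all 8, and the control mice lay between them, so the difference of -0.13 ± 0.21 (SE) was well within the spread. *Nr1d2*, which encodes REV-ERB beta, was at 1.29, 1.29, 1.41 and 1.14 in MS mice, against 1.28, 1.34, 1.15 and 1.36 in control mice. *Rorb*, a receptor of the SCN and retina, was at 1.94, 1.78, 1.80 and 2.15 in MS mice, against 1.92, 2.01, 1.97 and 2.04 in control mice, a difference of -0.07 ± 0.09 (SE, limma, adjusted p = 0.989). For *Rora*, an activator of *Arntl* that neurons of the thalamus also express strongly, it was -0.01 ± 0.07 (SE).

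Of the bZIP factors, *Dbp*, an output gene with a deep rhythm in many tissues, was at 5.44, 5.67, 5.60 and 5.34 in MS mice, against 5.50, 5.47, 5.60 and 5.39 in control mice. The MS mice held both the highest and the lowest value, and the difference was 0.03 ± 0.09 (SE). With the second *Dbp* probe the difference was -0.04 ± 0.14 (SE). *Tef*, a close relative of *Dbp*, had a smaller spread within groups than all but 3.66% of genes, at 5.87, 5.98, 5.95 and 5.95 in MS mice, against 6.02, 5.99, 5.92 and 5.97 in control mice. *Nfil3*, the repressor that competes with these factors at D-boxes, was at 0.66, 0.61, 0.63 and 0.79 in MS mice, against 0.61, 0.74, 0.44 and 0.73 in control mice. Neither gene separated the groups, with differences of -0.04 ± 0.05 (SE) for *Tef* and 0.04 ± 0.08 (SE) for *Nfil3*, and for *Hlf*, the remaining D-box activator, it was 0.03 ± 0.10 (SE).

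The kinases and ubiquitin ligases that set the stability of PER and CRY proteins had narrow intervals with their brightest probes, all within 1.5-fold. *Csnk1d*, casein kinase 1 delta, was at 5.25, 5.23, 5.33 and 5.29 in MS mice, against 5.22, 5.19, 5.16 and 5.29 in control mice, a difference of 0.06 ± 0.05 (SE, limma, adjusted p = 0.989). *Fbxl21*, a ubiquitin ligase subunit for CRY, was at -1.99, -1.94, -1.83 and -2.00 in MS mice, against -1.77, -1.92, -1.82 and -1.87 in control mice. Its difference, below 0 under every alternative run, was -0.09 ± 0.06 (SE, limma, adjusted p = 0.989). The second *Fbxl21* probe gave -0.31 ± 0.18 (SE), with a wider interval from -0.72 to 0.10. *Gsk3b*, a kinase of several clock proteins, ran from 4.76 to 4.84 in MS mice and from 4.67 to 4.88 in control mice. Together with *Csnk1e*, casein kinase 1 epsilon, and *Btrc* and *Fbxw11*, the F-box proteins that tag PER, it had differences between 0.01 and 0.06, of which those of *Csnk1e* and *Gsk3b* turned sign under 4 of 19 alternatives each.

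*Usp2*, a deubiquitinase gene with a strong rhythm, was at 1.90, 2.04, 2.07 and 1.80 in MS mice, against 1.99, 1.94, 2.07 and 1.88 in control mice, a difference of -0.02 ± 0.08 (SE). *Id2*, an inhibitor of bHLH factors, was at 2.00, 1.79, 2.10 and 2.06 in MS mice, against 1.90, 1.90, 1.86 and 1.82 in control mice. MS mouse 7.1 was the lowest of all 8 mice and the other 3 MS mice were the highest, and the difference was 0.11 ± 0.08 (SE, limma, adjusted p = 0.989), or 0.18 without that mouse, which passed the threshold before adjustment and not after it. *Wee1*, the cell-cycle kinase gene, was at 0.37, 0.38, 0.44 and 0.48 in MS mice, against 0.43, 0.40, 0.32 and 0.63 in control mice, a difference of -0.02 ± 0.07 (SE).

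**Figure D3:**
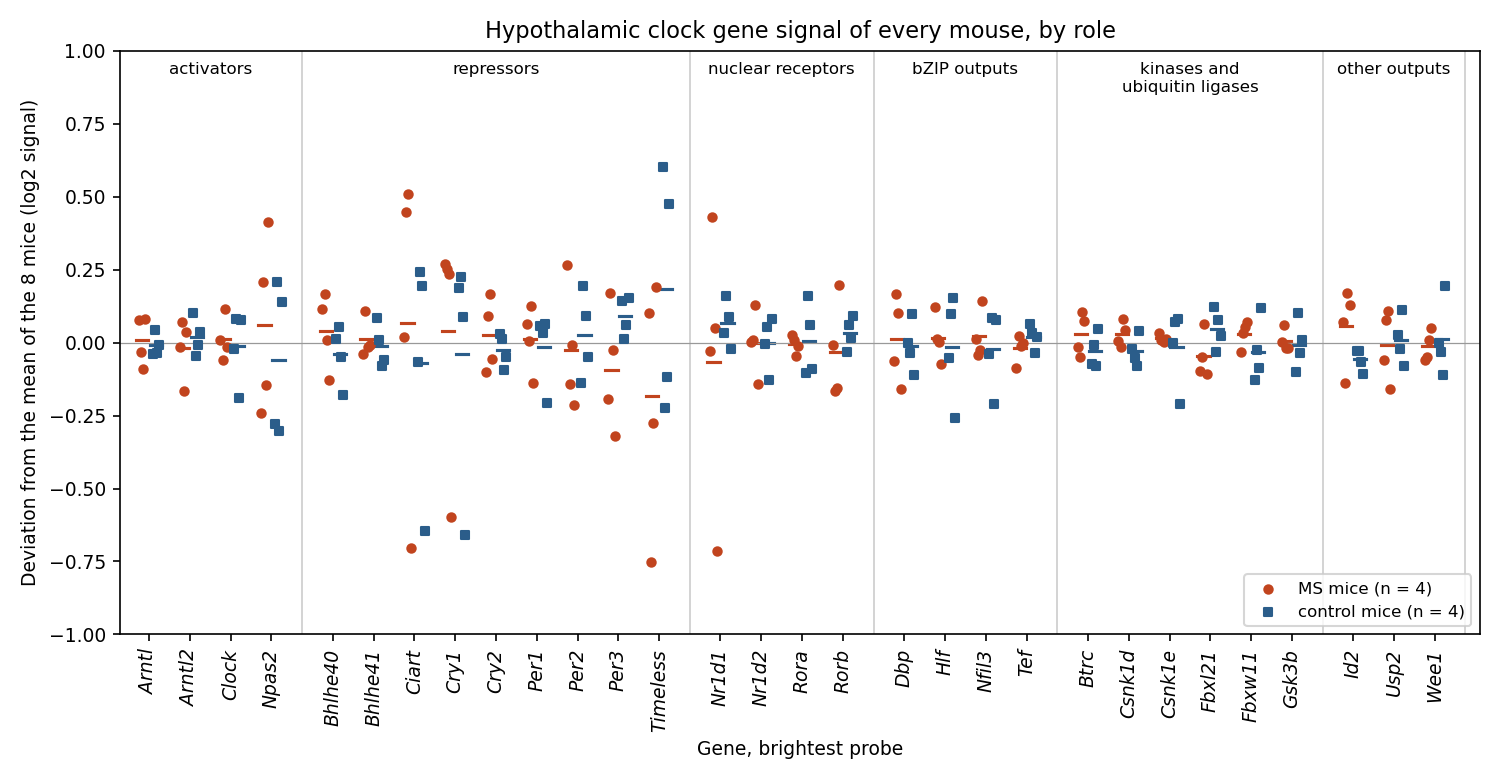
Signal of the 30 clock genes in every mouse as the deviation from the mean of the 8 mice (log2), by role; circles are MS mice, squares control mice and short lines group means (n = 4 a group). The groups overlap in every gene, and the spread is widest in Ciart, Cry1, Timeless and Nr1d1.

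No difference was detected in further genes of the pathway either. All 49 genes of a list of clock co-factors, post-translational regulators and outputs were measured, and none passed the adjusted or the unadjusted threshold, where 2.66% of all genes passed the unadjusted one. Log2 fold changes were above 0 for 29 of them and below 0 for 20, beside 53.6% above 0 of all genes, with a median of 0.03. The smallest p on the upper side was that of *Nampt*, the NAD-salvage enzyme that the clock drives, at 0.58, 0.62, 0.52 and 0.70 in MS mice, against 0.56, 0.43, 0.42 and 0.49 in control mice, a difference of 0.13 ± 0.06 (SE, limma, adjusted p = 0.989). On the lower side it was that of *Gmeb1*, which encodes a DNA-binding modulator of glucocorticoid responses, with -0.14 ± 0.07 (SE, limma, adjusted p = 0.989).

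Whether clock-phase genes varied together between mice was asked over all 8 mice. Arm 1 here holds genes driven through E-boxes and D-boxes (*Per1*, *Per2*, *Per3*, *Dbp*, *Tef*, *Nr1d1*, *Nr1d2*, *Ciart*, *Usp2* and *Bhlhe41*). In rhythmic tissues such genes peak apart from genes of the opposite limb, here arm 2 (*Arntl*, *Npas2*, *Clock* and *Nfil3*). *Cry1* was also counted in arm 2, although the activators drive it through E-boxes, so its place there was a choice of grouping. Of the 105 pairs among these 15 genes, none passed an exact permutation test over the 40320 pairings of the mice after BH adjustment, for Pearson r or for Spearman rho, while 17 had an unadjusted p under 0.05 for r and 12 for rho. Pairs with r of 0.8 or more were 5.71% of the 105, against 1.78% of all pairs of genes, and pairs with r of -0.8 or less were 1.9%, against 1.36%. Within arm 1, 40 of 45 pairs were positive with a median r of 0.34, and within arm 2, 6 of 10 with a median of 0.16. Between the arms 19 of 50 were positive with a median of -0.15. Over all pairs of genes 51.2% were positive, with a median of 0.02. *Cry1* had r from -0.556 to -0.113 with the other genes of arm 2. Its r was 0.936 with *Per1* and 0.907 with *Ciart*, both of arm 1. Genes measured in the same 8 mice are not independent, so these counts carry no p.

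**Figure D4:**
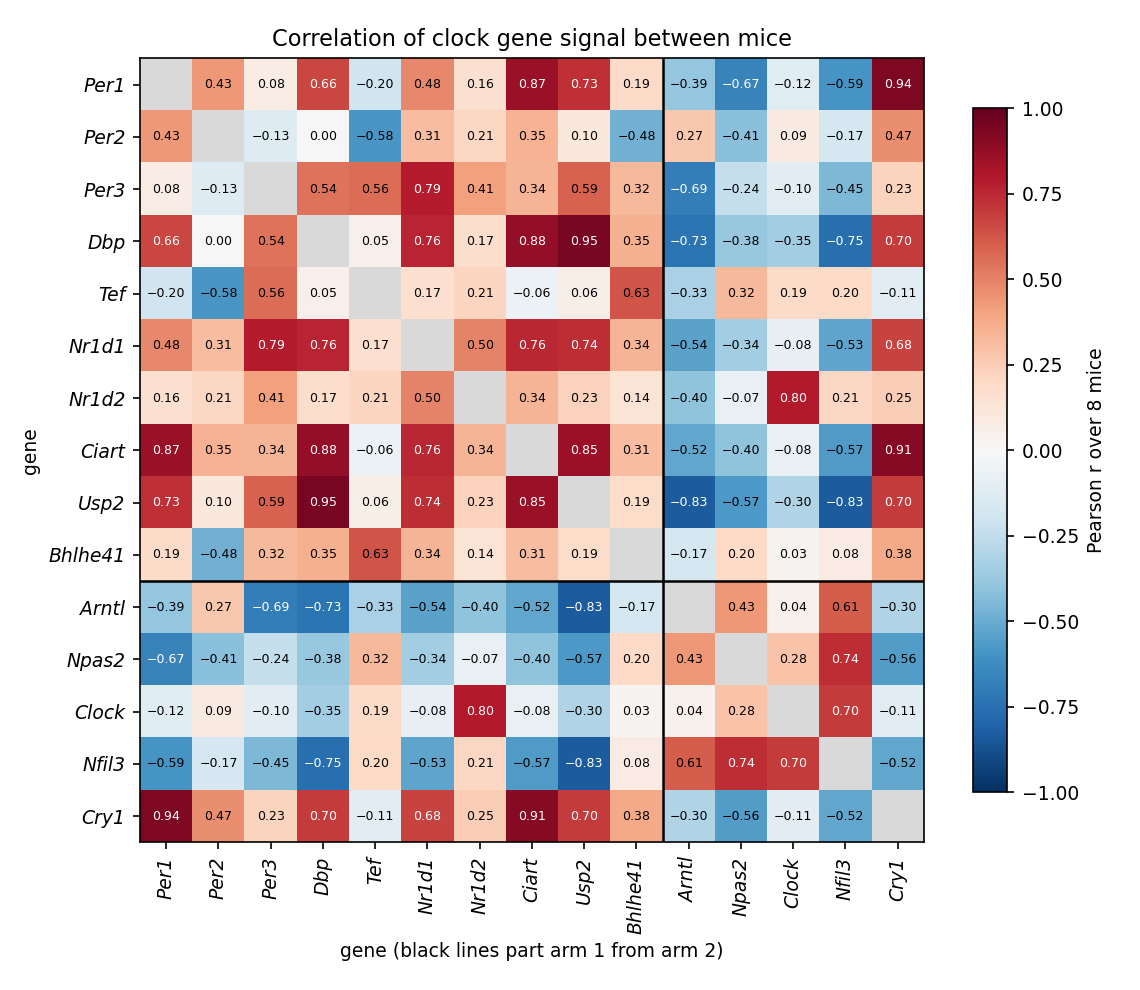
Pearson r over 8 mice for each pair of the 15 clock-phase genes, with black lines between arm 1 (first 10 genes) and arm 2 (last 5). Dbp, Nr1d1, Ciart and Usp2 form a block of positive values and have negative values with Arntl and Nfil3, whereas Per2, Tef and the plotted Bhlhe41 probe have r of 0.355 or less with Dbp.

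The closest pair was *Dbp* with *Usp2*, at r = 0.947 (exact permutation p = 0.000843, BH-adjusted p = 0.0885) and rho = 0.905 (exact permutation p = 0.00456, BH-adjusted p = 0.375). It was 0.991 without MS 7.1 and MS 7.6, the mice farthest from the median of *Dbp*, 0.892 without the 2 arrays with the fewest probes above background, 0.969 with group means removed and 0.952 with row means removed. Both genes were lowest in MS 7.6 and control 8.5 and highest in MS 7.1, MS 7.2 and control 8.4, which mixes both groups. A second *Dbp* probe followed the first (r = 0.928 over 8 mice, exact permutation p = 0.000893, BH-adjusted p = 0.0161). The promoter windows of *Dbp* and *Usp2* held none of the motifs shown above.

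The next pairs of *Dbp* were with *Ciart*, at r = 0.875 (exact permutation p = 0.00451, BH-adjusted p = 0.153, rho = 0.857), and with *Nr1d1*, at r = 0.763 (exact permutation p = 0.00957, BH-adjusted p = 0.153, rho = 0.810). Without MS 7.1 and MS 7.6, r was 0.789 for *Ciart* and 0.410 for *Nr1d1*. On the opposite side, *Dbp* had r = -0.754 with *Nfil3* (exact permutation p = 0.0243, BH-adjusted p = 0.182, rho = -0.810) and r = -0.734 with *Arntl* (exact permutation p = 0.0430, BH-adjusted p = 0.265, rho = -0.762). Without the same mice these were -0.763 and -0.687. *Usp2*, described here after its values were seen, had r = -0.835 with *Nfil3* (exact permutation p = 0.00766, BH-adjusted p = 0.153, rho = -0.857) and -0.833 with *Arntl* (exact permutation p = 0.0128, BH-adjusted p = 0.153, rho = -0.810). These were -0.753 and -0.774 without MS 7.6 and control 8.4. The BH-adjusted p of rho lay between 0.375 and 0.401 for all 6 pairs of this paragraph. The range behind these values was small with the brightest probes. It was 1.25-fold between the highest and the lowest mouse for *Dbp*, 1.21-fold for *Usp2*, 1.28-fold for *Nfil3* and 1.13-fold for *Arntl*. The second *Dbp* probe spanned 1.63-fold.

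With the brightest probe of each remaining gene of arm 1, the relations of *Dbp* were weaker. Its r was 0.664 with *Per1*, 0.544 with *Per3*, 0.355 with *Bhlhe41*, 0.172 with *Nr1d2*, 0.048 with *Tef* and 0.002 with *Per2*, and in arm 2 it was 0.699 with *Cry1*, -0.380 with *Npas2* and -0.348 with *Clock* (exact permutation, BH-adjusted p between 0.326 and 0.995 for r and between 0.688 and 0.996 for rho over 8 mice). For *Bhlhe41* and *Nr1d2* this turned on the probe. The second *Bhlhe41* probe, well above background on all 8 arrays, was at -2.65, -2.31, -2.46 and -2.93 in MS mice, against -2.60, -2.54, -2.35 and -2.91 in control mice, lowest in MS 7.6 and control 8.5 as *Dbp* was. Its r with *Dbp* was 0.948 (exact permutation p = 0.000298, BH-adjusted p = 0.0167, rho = 0.952 with BH-adjusted p = 0.0639), and 0.929 without those 2 mice. The second *Nr1d2* probe had r = 0.868 with *Dbp* (exact permutation p = 0.00970, BH-adjusted p = 0.0776, rho = 0.762), and the second *Per1* probe r = -0.244 (exact permutation, BH-adjusted p = 0.735). These values came from 56 relations of the second probes of 4 genes, computed after the data were seen, of which 5 passed the adjustment for r and 0 for rho. The 5 were *Bhlhe41* with *Dbp*, *Ciart*, *Usp2* and *Nr1d1*, and the second *Dbp* probe with *Nr1d1*. With such probes in place of the brightest ones, 0 of the 105 pairs passed, and 31 of the 45 pairs within arm 1 were positive. For the brightest probes, the value for *Per1* was -0.046 without MS 7.6 and control 8.5, and that for *Per3* was -0.114 without MS 5.3 and MS 7.6. The value for *Cry1* was -0.22 without MS 7.6 and control 8.5, and 0.534 without MS 7.1 and MS 7.6.

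**Figure D5:**
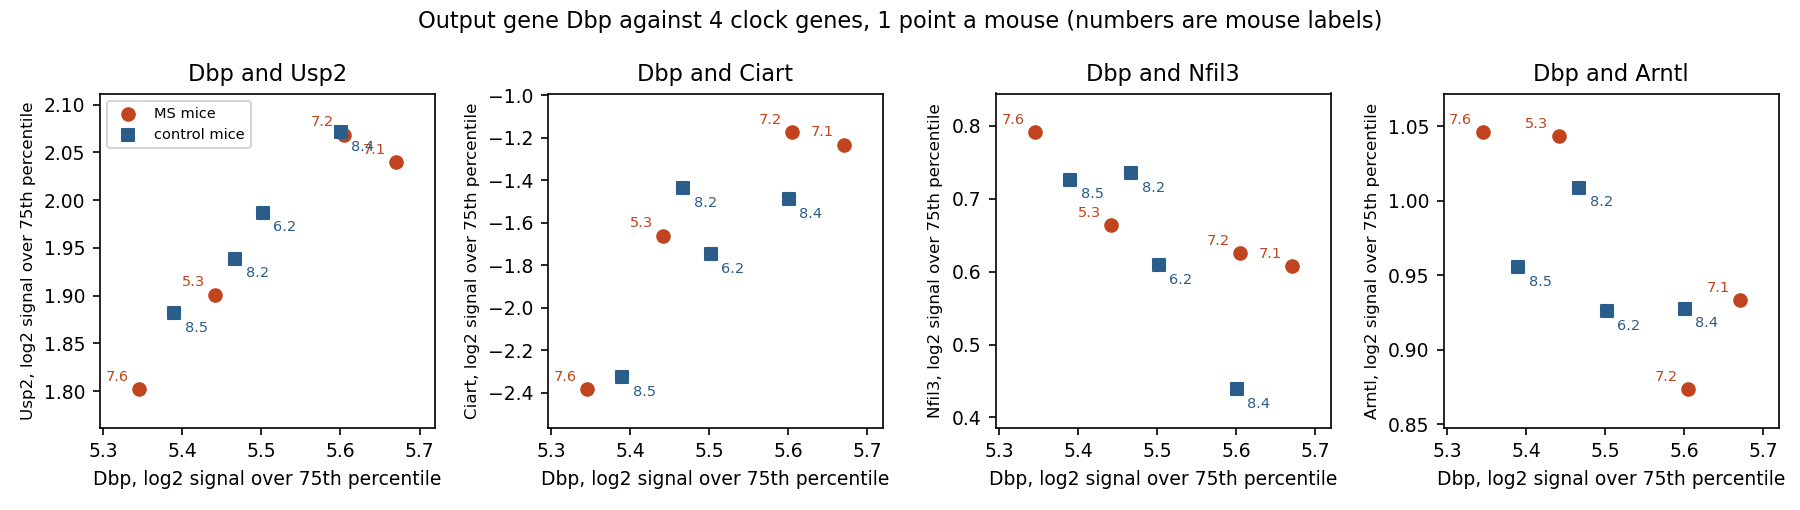
Signal of Usp2, Ciart, Nfil3 and Arntl against that of Dbp, 1 point a mouse (MS circles, control squares, numbers are mouse labels), all as log2 over the 75th percentile of the array. Usp2 and Ciart run upward with Dbp and Nfil3 and Arntl downward, with MS and control mice mixed along each course.

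The other pairs with the highest r rested on 2 mice. *Per1* and *Cry1* had r = 0.936 (exact permutation p = 0.0162, BH-adjusted p = 0.153, rho = 0.619) and -0.078 without MS 7.6 and control 8.5. For *Ciart* and *Cry1*, r was 0.907 (exact permutation p = 0.0144, BH-adjusted p = 0.153, rho = 0.667) and 0.196 without those mice, and for *Per1* and *Ciart* it was 0.867 (exact permutation p = 0.0160, BH-adjusted p = 0.153, rho = 0.571) and 0.136 without them. Their rho had BH-adjusted p of 0.604, 0.582 and 0.641 (exact permutation). *Per1*, *Cry1* and *Ciart* all carry an E-box in the windows described above, and the part of this motif in these relations was not tested. With those 2 arrays left out, a choice made after the data were seen, 27 of the 45 pairs within arm 1 were positive with a median r of 0.16, and 25 of the 50 between the arms.

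Array brightness had positive relations with some of the genes that varied together and negative ones with others. Of 60 relations between members and 2 array properties, 9 had an unadjusted p under 0.05, and 1 passed the adjustment, that of *Ciart* with the log2 of the 75th percentile (r = 0.786, exact permutation p = 0.000719, BH-adjusted p = 0.0432, rho = 0.881 with BH-adjusted p = 0.434). Without the 2 farthest arrays this r was 0.768. The 75th percentile also had r = 0.870 with *Nr1d1*, 0.739 with *Usp2* and 0.642 with *Dbp* (rho = 0.524, 0.524 and 0.571, exact permutation, BH-adjusted p = 0.296, 0.254 and 0.296 for r over 8 mice), and these were 0.405, 0.207 and 0.274 without the 2 farthest arrays. With the 75th percentile, *Arntl* had r = -0.556 and *Nfil3* r = -0.504, and 0.483 and 0.010 without the 2 farthest arrays. The number of probes above background went with *Per1* (r = 0.837, rho = 0.714, r = 0.470 without the 2 farthest) and *Cry1* (r = 0.823, rho = 0.595, r = 0.115 without them), with exact permutation BH-adjusted p of 0.254 for both r over 8 mice. For *Ciart*, *Dbp*, *Usp2* and *Nr1d1* its r was 0.725, 0.365, 0.504 and 0.503 (exact permutation, BH-adjusted p between 0.296 and 0.605 over 8 mice). Without the 2 farthest arrays these were -0.133, -0.691, -0.448 and -0.625. A mean of 5 meningeal genes had negative relations with *Ciart* (r = -0.889, rho = -0.833) and *Cry1* (r = -0.863, rho = -0.833), with exact permutation BH-adjusted p of 0.372 for r and 0.507 for rho in both, and it was highest in MS 7.6, at 0.65, and in control 8.5, at 0.70, against -0.56 to 0.30 in the other mice. The SCN marker mean was at -0.10, 0.19, 0.19 and -0.17 in MS mice, against 0.02, 0.57, 0.62 and -0.12 in control mice, and it went with *Usp2* (rho = 0.857, r = 0.637), *Nr1d1* (rho = 0.810, r = 0.525), *Ciart* (rho = 0.762, r = 0.640) and *Dbp* (rho = 0.714, r = 0.560). Without control 8.2 and 8.4, the farthest mice on this mean, r was 0.970 for *Usp2*, 0.746 for *Nr1d1*, 0.910 for *Ciart* and 0.978 for *Dbp*. *Avp* and *Prok2* of the SCN list also stood on the list of clock co-factors, regulators and outputs. The SCN mean was therefore not a measure of tissue apart from the clock pathway. *Vip* of this list was at 0.59 and 0.98 in control 8.2 and 8.4, above all other mice. A mean of 6 oligodendrocyte genes had rho = 0.881 with *Usp2* and 0.833 with *Dbp* (r = 0.632 and 0.647, and 0.798 and 0.785 without control 8.4 and 8.5). None of these relations passed the adjustment over the 419 (exact permutation, BH-adjusted p of 0.507 or more for rho and 0.781 or more for r over 8 mice). The part of array brightness and of SCN, oligodendrocyte and meningeal tissue in the relations between clock genes was not tested.

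Probes of the same gene agreed unevenly. The 15 genes with more than 1 probe gave 18 pairs of the brightest with another probe, and r was above 0 for 13 of them with a median of 0.31. *Dbp* and *Timeless* passed the adjustment for r, and *Dbp*, *Timeless* and *Rorb* for rho (rho = 0.905 for each, exact permutation, BH-adjusted p = 0.0274). The sign of the group difference was the same for 11 of the 18 pairs. For *Cry2* the brightest probe gave 0.05 and the other -0.10 (r = -0.455 between them), and for *Fbxl21* both were below 0, at -0.09 and -0.31. The second *Per1* probe was near background, well above it on 3 of 4 arrays in each group, and did not follow the first (r = 0.205, exact permutation BH-adjusted p = 0.795 over 8 mice).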

How the data were processed

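The authors prepared Cy3-labelled cRNA from 200 ng of HT RNA per mouse, hybridised it to Agilent one-colour arrays and extracted the scans with Agilent Feature Extraction 10.10.1.1. The deposited scanner files hold the processed signal of each spot, a background-subtracted intensity on a linear scale, and the deposited value table holds log2 values made by the authors, used as an alternative only. Of 59305 spots, outlier spots were left out and spots of a probe averaged, giving 55681 probes. The log2 intensity minus the 75th percentile of each array was tested with limma 3.58.1 in R 4.3.3 for probes that 4 or more of the 8 arrays had well above background (two-sided, BH over all of them). Correlations over mice used exact permutation tests in SciPy 1.17.1. Both were tested on simulated data. Probes were named by the accessions of the files, or else by symbol, through RefSeq tables.

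The members and lists were chosen with earlier results of these data known, which therefore support nothing on their own. Every member is described. Values of every mouse are given for the genes of both arms and for the smallest unadjusted p in each direction in each role, and pairs are the 5 with the largest absolute r and *Dbp* with every other gene of the arms. The slide row was examined as a block and within each row. Alternatives in scaling, background, filter, block and mice were run.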

Additional observations from a re-analysis of the deposited data

Results flagged for a closer look

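In 60 groups of 4 mice (30 members, 2 groups each), 3 held a mouse far from the other 3, by the Dixon criterion of the gap over the range of the group. Chance flags about 1 in 20 groups. *Cry1* in MS 7.6 was at -4.29, with the nearest MS mouse at -3.46. *Cry1* in control 8.5 was at -4.36, with the nearest control mouse at -3.61. *Per1* in control 8.5 was at 3.01, with the nearest control mouse at 3.26. The arrays of these 2 mice had the fewest probes well above background, 34074 for MS 7.6 and 34935 for control 8.5, against 35938 to 39598 for the other 6 mice, and their part in the values was not tested.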

How the results depend on the processing

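The count of clock genes with an adjusted p under 0.05 was 0 under every alternative run (quantile or median scaling, normexp, other filters, the authors' value table, slide row or the number before the dot of the mouse label as a block, either row alone, and each mouse left out). Over all probes it was 1 with that number as a random block and 1 in row 2 alone. The count of co-varying pairs at that threshold was 1 with normexp, 1 with group means removed, 5 with row means removed, where the permutation does not count the means taken out, and from 0 to 1 with a mouse left out (1 without MS 7.1, *Dbp* with *Usp2*). The r of *Per1* with *Cry1* became -0.078 without MS 7.6 and control 8.5. These were the 2 farthest mice and also the 2 arrays with the fewest probes above background, so this was a single check. The r of *Per1* with *Ciart* was -0.026 with the second *Per1* probe, a choice made after the data were seen. Log2 fold changes of single members lay near 0, and 10 of the 30 kept their sign under all 19 alternatives. These alternatives kept the brightest probe. Among those 10, *Btrc*, *Csnk1d* and *Cry2* had the opposite sign with another probe, at -0.03, -0.07 and -0.10, while *Fbxl21*, *Fbxw11* and *Rorb* kept theirs. No paired analysis was possible because the groups share no mouse number. With 4 mice a group, the intervals of the brightest probes of *Ciart*, *Cry1*, *Nr1d1* and *Timeless* hold changes of more than 1.5-fold.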
